A study of Drosophila melanogaster with 3 samples.

Results

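The interval described here lies on chromosome arm 3R of Drosophila melanogaster and is labelled by 2 genes, InR and E2f1. Its members are all Grainy head (Grh) peaks whose deposited start lies between 17390000 and 17500000 in the dm3 genome build: 37 of the 12158 peaks found with the rabbit anti-Grh antibody and 2 of the 1638 found with the mouse anti-Grh antibody. The interval was chosen by its peak counts, many in the rabbit list and few in the mouse list, so both counts are descriptions and were not tested. The peaks come from ChIP-seq, in which DNA bound by a protein is recovered with an antibody and sequenced, on w1118 embryos collected at 13 to 16 h and fixed in 1.8% formaldehyde. The groups were a rabbit anti-Grh, a mouse anti-Grh and a rabbit IgG immunoprecipitation, with 1 library each. The IgG library was not analysed here. With 1 library per antibody no spread between replicates can be given, and peaks of 1 library are not replicates, so values are compared without tests. The depth behind the peaks is unknown.

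Grh is a DNA-binding protein found in epithelial cells, where it is known to control the genes that build the cuticle and mend it after wounding. InR encodes the insulin receptor, the tyrosine kinase through which insulin-like peptides act on growth and metabolism in the fly. E2f1 encodes an activating E2F factor, which together with its partner Dp drives genes of DNA replication and the cell cycle and is held in check by the retinoblastoma-family protein Rbf. A peak in a gene's neighbourhood marks where chromatin was recovered by the antibody. It does not show that the gene is regulated from there.

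The files do not name genes, and no gene annotation of the dm3 build was used here, so no peak was assigned to a gene, exon or intron. In the RefSeq gene table of another build (Release 6), used for the order of genes only, InR and E2f1 were neighbours with no other protein-coding gene between them. The long noncoding RNAs lncRNA:Irar and lncRNA:CR44034 overlapped InR in that table, and the microRNA genes mir-998 and mir-11 overlapped E2f1. On the other side of InR stood CG15498 and then slou, the homeobox gene slouch. Whether the ends of the interval coincide with the ends of either gene was not examined, and the names InR and E2f1 stand for the interval.

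The rabbit antibody marked separate places from 17405989 to 17491294, its first and last peak, which lay 85305 bp apart. Peaks are given by the first base of their 2 bp interval, counted from 1. The deposited score, whose unit is not stated, ran from 2.09 to 32.5 over the 37 rabbit peaks, with a median of 4.45 (quartiles 3.08 and 6.98). Scores of the rabbit and the mouse list need not be on 1 scale. The mouse antibody marked 1 place near the left end, with peaks at 17409458 (score 6.51) and 17409774 (score 5.03).

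**Figure D1:**
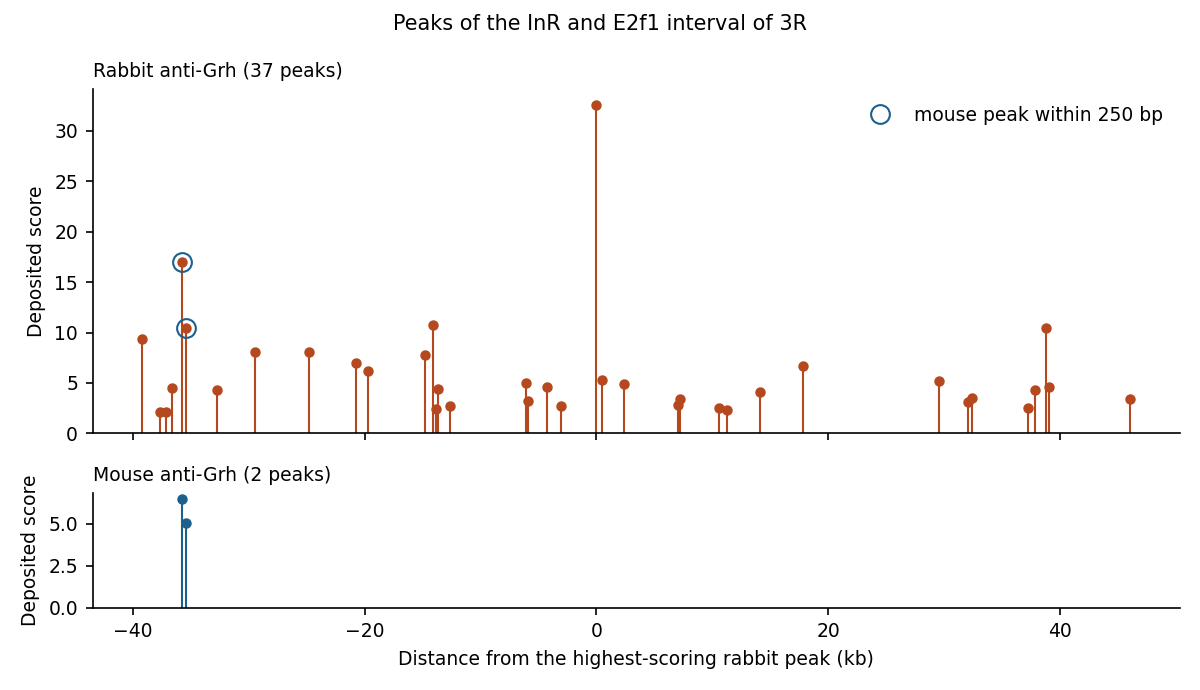
Deposited score of each rabbit anti-Grh peak (top, 37 peaks) and each mouse anti-Grh peak (bottom, 2 peaks) of the interval against the distance in kb from the highest-scoring rabbit peak; the vertical axes of the panels differ. The rabbit peak at 0 kb reaches 32.5, and the only rabbit peaks with a mouse peak within 250 bp (circles) are those with scores of 17.0 and 10.5 near the left end.

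A single rabbit peak stood above all others of the interval. It lay at 17445197 with a score of 32.5, which was 1.91 times the next highest and 7.30 times the median of the interval. In the whole rabbit list it was at place 400 by score, within the upper 3.29%, and it also had the foremost deposited rank of the interval, 185. A second peak with that rank lay 456 bp to its right, at 17445653, with a score of 5.32. The mouse list had no peak near this place, the nearest being 35423 bp away.

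Peaks of this score were found both with and without a mouse partner. Among the 200 rabbit peaks next to it in score order, 100 on either side with scores from 29.1 to 37.8, 109 had a mouse peak within 250 bp, or 54.5% (exact 95% binomial interval 47.3 to 61.5%). The median distance of the 200 to the nearest mouse peak was 30.5 bp. In 40 of the 200 the nearest mouse peak was at least as far away as it was here. The binomial intervals given here cover counting error only and take peaks as independent.

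The place marked by both antibodies came next in score. The rabbit peak at 17409466 scored 17.0 and lay 8 bp from the mouse peak at 17409458. Its neighbour at 17409777 scored 10.5 and lay 3 bp from the mouse peak at 17409774. Both antibodies thus resolved the same double peak, with its points 311 bp apart in the rabbit list and 316 bp apart in the mouse list, and in both lists the left point had the higher score. In the rabbit list the points had 1 rank in common (2721), while the mouse points had ranks of their own, 969 and 1231. By score the mouse peaks stood at places 469 and 913 in the mouse list, within its upper 28.6% and 55.7%. Rabbit peaks just to the left of this pair, at 17407543, 17408062 and 17408538, had scores between 2.09 and 4.45 and no mouse partner.

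None of the other rabbit peaks among the 10 highest had a mouse partner. All lay to the left of the top peak except that at 17484054. The peaks at 17431083 and 17484054 scored 10.8 and 10.4. The outermost peak on the left, at 17405989, scored 9.35 and had the second foremost rank of the interval, 981. Between the double peak and the peak at 17431083 lay, among others, peaks at 17415728 (score 8.05), 17420434 (8.08), 17424447 (6.98) and 17430442 (7.75). Of the 5 rabbit peaks that scored 10 or more, 3 were thus without a mouse partner; elsewhere on 3R this held for 433 of 811 such peaks.

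To the right of the top peak the scores were lower. The 16 peaks there had a median of 3.78, and 2 of them exceeded the median of the rabbit list, 5.98. Of the 20 peaks to the left, whose median was 4.75, 9 exceeded it. Peaks on the right also lay farther apart, with a median gap of 2484 bp against 1082 bp on the left. The last peak of the interval, at 17491294, scored 3.37.

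Of the 37 rabbit peaks of the interval, 2 had a mouse peak within 250 bp, or 5.41% (exact 95% binomial interval 0.66 to 18.2%). Among the other 2962 rabbit peaks of 3R the share was 15.6% (463 peaks, 14.3 to 17.0%). The interval was chosen for its few mouse peaks, so this share is a description. The binomial intervals take peaks as independent, which neighbouring peaks need not be, and may be too narrow. Here both matched peaks lie at 1 place. From the mouse side the match was complete, both peaks having a rabbit peak, and elsewhere on 3R 434 of 446 mouse peaks, or 97.3%, had one. The 35 unmatched rabbit peaks lay between 920 and 53249 bp from the nearest mouse peak, with a median of 31840 bp. The median was 16350 bp over the 2499 other unmatched rabbit peaks of 3R. At a distance of over 10 kb from any mouse peak were 29 of the 35, or 82.9%, against 61.1% of the unmatched peaks elsewhere on 3R. All 29 lay in 1 stretch without mouse peaks. Distances to mouse peaks depend on the few mouse peaks for which the interval was chosen, so they too are a description.

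The counts that chose the interval are set here beside those of its arm. Laid end to end from its start, 252 other windows of 110 kb covered 3R, with a median of 11 rabbit peaks (quartiles 6 and 17) and of 1 mouse peak (quartiles 0 and 3). Only 1 of these windows held more rabbit peaks, with 54, and the next below the interval held 29. With its 2 mouse peaks, however, the interval was above the median window: 78 windows held no mouse peak, 64 held 1, 38 held 2 and 72 held more. These 2 peaks lie at 1 place. With mouse peaks no more than 1 kb apart joined, the interval held 1 group and 103 of the 252 windows held more. The 38 windows with the same number of mouse peaks held between 3 and 26 rabbit peaks, with a median of 12. There were 18.5 rabbit peaks for each mouse peak in the interval and 6.64 over the rest of 3R. Many rabbit and few mouse peaks are what the interval was chosen for, so this ratio is no finding.

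**Figure D2:**
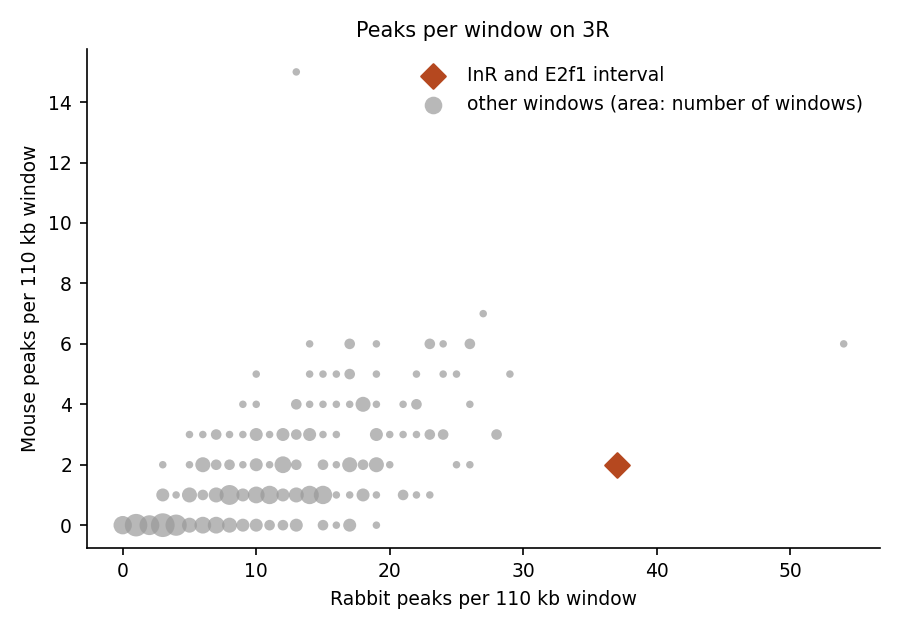
Number of mouse anti-Grh peaks against number of rabbit anti-Grh peaks in each 110 kb window of 3R; circle area grows with the number of windows at a point, and the diamond is the InR and E2f1 interval. The interval, with 37 rabbit and 2 mouse peaks, lies far to the right of the other windows with 2 mouse peaks, which reach 26 rabbit peaks, and below the window with 54 rabbit peaks, which has 6 mouse peaks.

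Most rabbit peaks of the interval were low-scoring. Their total number chose the interval, so its places among the windows are a description. Of its rabbit peaks 25, or 67.6%, scored below the median of the rabbit list, against 49.2% of the other rabbit peaks of 3R. By its 25 peaks in this lower 50% it was exceeded by 1 other window of 3R, where the median window held 5. By its 12 peaks in the upper 50% it was exceeded by 23 windows, the median window holding 5 here too. Counting only peaks that scored 10 or more, it held 5 and was exceeded by 40 windows, the median window holding 3. In the upper 10% of the list it had 1 peak, the same as the median window. Its median score of 4.45 was below the 6.09 of the other rabbit peaks of 3R (quartiles 3.95 and 10.9). Among unmatched peaks alone the medians were 4.38 and 5.49. By deposited rank, a second order of unstated basis in which small numbers come first, the medians were close, 4582 in the interval and 4479 elsewhere on 3R.

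Low scores and a missing mouse partner went together on the rest of the arm. Over 10 equal classes of the rabbit list by score, the share of other 3R peaks with a mouse partner was between 0.68% and 4.53% in the lower 6 classes and 8.79%, 23.2%, 44.9% and 57.9% in classes 7, 8, 9 and 10. The interval had 28 of its 37 peaks in the lower 6 classes. Given the 3R share of its own class, each peak being counted with that share, 2.65 of the 37 peaks would have a mouse partner, and 2 did. With the 3R share over all scores the number would be 5.78. With so few matched peaks these numbers are a description, and the part of the scores in the missing matches was not tested.

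**Figure D3:**
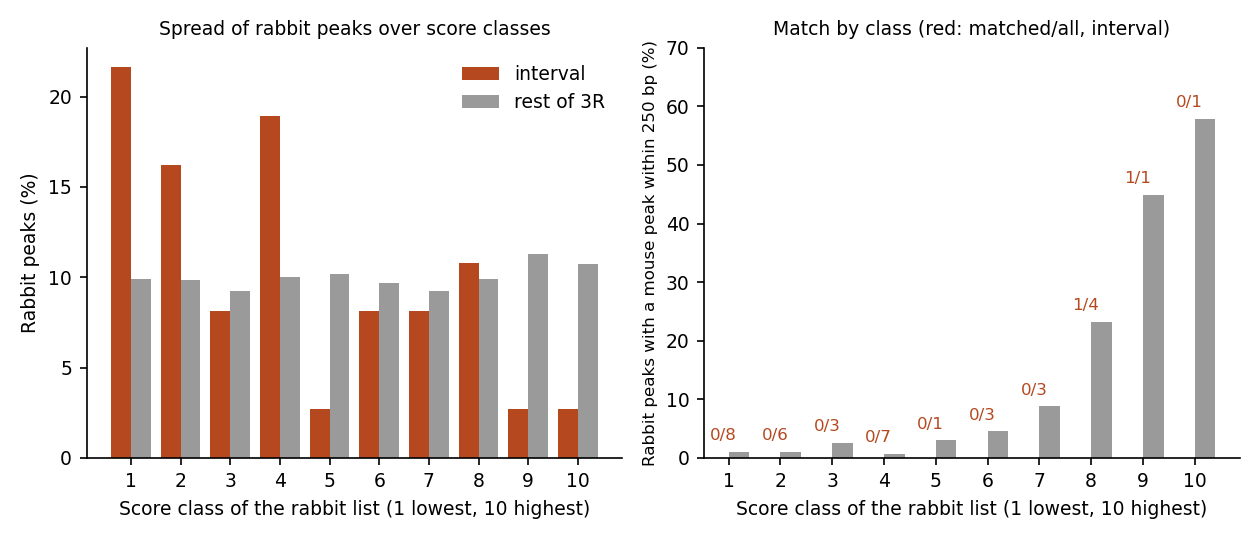
Left, percentage of the rabbit anti-Grh peaks of the interval (red, 37 peaks) and of the rest of 3R (grey, 2962 peaks) in each of 10 equal classes of the rabbit list by score. Right, percentage of the other 3R peaks of each class with a mouse peak within 250 bp, with the matched and total peaks of the interval printed in red; the share is at most 4.53% in classes 1 to 6, which hold 28 of the 37 peaks of the interval.

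Windows of like rabbit density give a comparison at a like number of rabbit peaks. The interval was also chosen for its few mouse peaks, which these windows were not. Its place among them by mouse peaks or matched share is therefore a description. On the arms 2L, 2R, 3L, 3R and X, 28 other windows of 110 kb held between 28 and 42 rabbit peaks, within 25% of the number in the interval. They held between 1 and 10 mouse peaks (median 4), and 25 of them held more than the 2 of the interval. The share of rabbit peaks with a mouse partner ran from 3.33% to 35.1% over these windows (median 15.7%), and together 145 of their 864 rabbit peaks, or 16.8% (14.3 to 19.4%), had one. Of the 28, only a window on 3L from 9350001 to 9460000, with 1 of 30 peaks matched, had a lower share than the interval. Its median score, 4.17, was lower too. Among windows within 50% of the rabbit count, 22 of 169 had a lower share. Median scores of the 28 windows ran from 3.78 to 7.30, and 26 were above that of the interval. The top score was not low by comparison: 15 of the windows had a lower highest score than 32.5 and 13 a higher one.

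The same allowance for score was made in these windows, with the share of each class taken over the major arms outside the window. The number of matched peaks was 0.74 times the number so obtained in the interval (2 against 2.71). In the 28 windows this ratio ran from 0.45 to 2.54 with a median of 1.28, and 2 windows were below the interval. The few mouse peaks for which the interval was chosen bear on this ratio too, which rests on 2 matched peaks at 1 place and is a description.

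**Figure D4:**
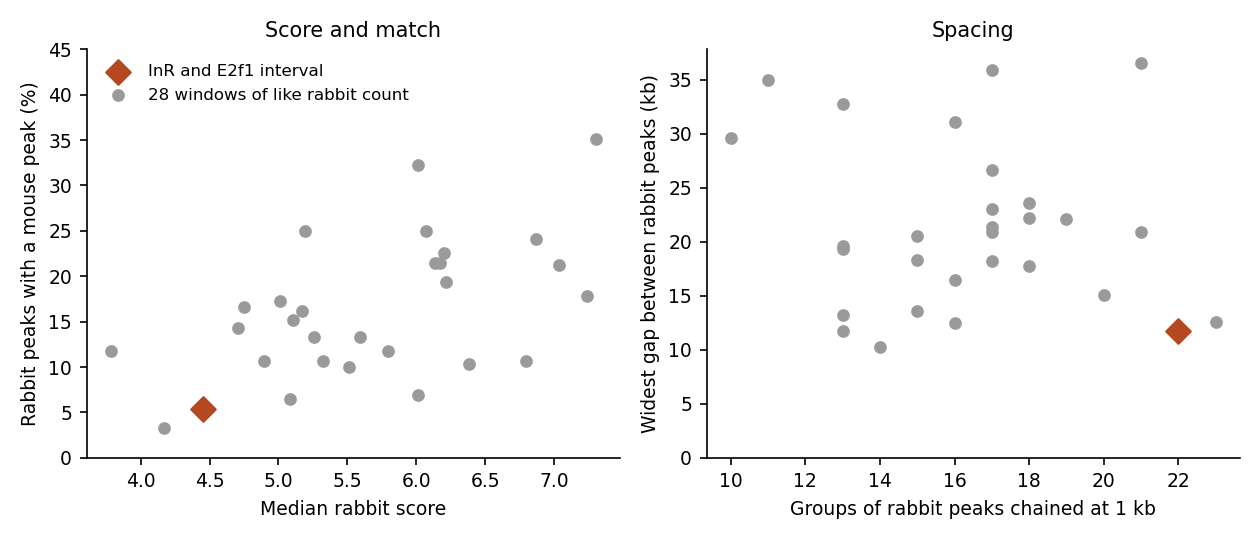
Left, percentage of rabbit anti-Grh peaks with a mouse peak within 250 bp against the median rabbit score; right, widest gap between rabbit peaks in kb against the number of groups of rabbit peaks chained at 1 kb. Each grey point is 1 of 28 windows of 110 kb with 28 to 42 rabbit peaks and the diamond is the InR and E2f1 interval, which lies at the lower left of the first panel (4.45, 5.41%) and the lower right of the second (22 groups, 11.8 kb).

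Rabbit peaks lay in most parts of the interval, and 24 of the 37 had another within 1 kb. Gaps between neighbours ran from 153 to 11783 bp, with a median of 1356 bp (quartiles 508 and 3413 bp). The closest pair lay at 17452284 and 17452437, with scores of 2.79 and 3.41, and the widest gap separated the peaks at 17463023 (score 6.66) and 17474806 (score 5.16). Divided into 11 parts of 10 kb, the interval had peaks in 10, the exception being the first. The fullest part, from 17430001 to 17440000, held 7 peaks, and the one from 17400001 to 17410000 held 6, both mouse peaks among them.

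Where neighbours no more than 1 kb apart were joined, 22 groups resulted. Of these 13 were single peaks, 7 were pairs and 2 held 5 peaks. The groups of 5 were the one that contains the double peak shared by both antibodies, from 17407543 to 17409777, and one from 17430442 to 17432545, whose highest score was 10.8. One group of the 22, or 4.55%, contained a mouse match, against 18.9% of the 2026 other groups of 3R. This share rests on 1 group in an interval chosen for few mouse peaks and is a description. Of the 28 windows of like density, 27 had fewer groups and 1 had more, their median being 16.5. Their widest gap was above that of the interval in 26 (median 20719 bp), and the share of gaps under 1 kb was higher in 22, with 41.7% in the interval and a median of 49.1% in the windows. Over the rest of 3R that share was lower, at 31.5%. A group there held 1.46 peaks on average, against 1.68 in the interval. Gaps and groups depend on the number of peaks, which chose the interval and which was higher than in 25 of the 28 windows.

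The deposited names give some neighbouring peaks 1 rank in common. In the interval 13 peaks fell into 6 such sets, each with consecutive numbers and a span between 153 and 482 bp, and the other 24 peaks had ranks of their own within the interval. The highest peak of a set was the leftmost in 5 of the 6. In the set of 3 at 17431083, 17431353 and 17431565 the scores were 10.8, 2.41 and 4.38. Other sets were the pairs at 17439154 and 17439323 (scores 4.96 and 3.17) and at 17484054 and 17484283 (10.4 and 4.59). Counted by rank, the interval thus had 30 entries, of which 1, or 3.33%, was matched by the mouse list. In the rabbit list 490 ranks were given to peaks on more than 1 arm. A rank in common thus does not by itself mark a single region. None of these 6 ranks occurred outside the interval, but 11 of the other 24 did.

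To the right of the shared double peak the mouse list was empty for 113360 bp, up to a peak at 17523134 with a score of 5.40. Leaving out peaks within 250 bp of either end, 32 rabbit peaks lay inside this stretch. Of 447 stretches between neighbouring mouse peaks on 3R, 77 were longer and 3 held more rabbit peaks. The 53 others on 3R whose length was within 25% of it held between 0 and 25 rabbit peaks, with a median of 9. The stretch covers most of an interval chosen for many rabbit and few mouse peaks, so these counts are a description. On the left the nearest mouse peak before the double peak was at 17325391 (score 9.17), 84067 bp away, with 9 rabbit peaks between them.

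The bounds of the interval fell in stretches without peaks. The rabbit peak just outside on the left was at 17387534 with a score of 2.41, and the first one inside, at 17405989, came 15988 bp after the bound. On the right the last rabbit peak inside, at 17491294, lay 8707 bp before the bound, and the next, at 17519015 with a score of 10.7, lay 19014 bp beyond it.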

How the data were processed

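The submitters' processing notes name Bowtie and the dm3 build. How peaks were called, with which thresholds and whether against IgG, is not given in the sources used here. Per the file headers, the authors deposited a separate list for the rabbit and for the mouse library. Each peak carries a score of unstated unit, with a lowest value of 2.0 in both lists. Each score is the authors' own value and was used only within a list. Read depth is unknown.

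Peaks were matched where first bases lay within 250 bp. Intervals on shares are exact 95% Clopper-Pearson intervals, which take peaks as independent. Windows of 110 kb were laid out from the start of the interval on 3R and from base 1 on the other arms, and incomplete ones at chromosome ends were left out. The members were chosen with earlier results of these data known, as were the lists and comparisons. Peaks named were fixed as all mouse peaks, the 10 highest-scoring rabbit peaks, the first and last, the closest pair and the widest gap. Others named belong to groups or sets of these, except the pair at 17439154 and 17439323 and the peaks outside the interval. Comparisons by score class, by mouse-free stretch, by rank in common and about the top peak were added after the values were seen. A search for the Grh motif was planned but not run, as no dm3 sequence was used here. The matching procedure was tested on the rabbit peaks of 3R, some of which were planted with small shifts as a second list. Counting and chaining were tested on short made-up lists. SciPy 1.17.1, pandas 2.3.3, NumPy 2.4.6 and matplotlib 3.10.9 were run under Python 3.11.15.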

Additional observations from a re-analysis of the deposited data

How the results depend on the processing

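For 8 results 28 alternative values were computed, and 24 stayed within these limits: counts, gaps and window medians within 1.5 times the reported value, matched shares within their wide binomial interval (0.66 to 18.2%), median scores within the quartiles and deposited rank and numbering in the same direction (median numbering 6959 in the interval and 5880 over the rest of 3R). The other 4 were counts over fewer peaks by construction. Some of the 24 could not move: values without the first 10 kb, interval counts set beside windows at steps of 10 kb, and mouse peaks matched at wider distances. The tally is therefore no measure of stability. With only the upper 50% of each list, by score, the interval held 12 rabbit peaks and 1 mouse peak, and counted in groups chained at 1 kb it held 22 rabbit groups and 1 mouse group. The rabbit count was exceeded by 1 of 252 windows of 3R in groups and by 23 in the upper 50%. The mouse count was exceeded by 103 windows in groups and by 53 in the upper 50%. The matched share of rabbit peaks was 5.41% within 100 or 500 bp, 8.11% within 1000 bp, 16.7% in the upper 50% of the rabbit list, and 3.33% where peaks with a rank in common were counted once, a setting chosen after seeing the data. The same shares over the rest of 3R were 14.3%, 19.2%, 23.9%, 29.2% and 21.4%. Distant peaks can hold the same rank, so an entry counted by rank need not be a single region. Leaving out the first 10 kb of the interval removed no peak. Chaining at 500 bp gave 28 groups and at 2000 bp 16. Windows within 50% or 10% of the rabbit count, or on 3R alone, had median matched shares of 15.0%, 14.0% and 10.7%, over 169, 4 and 3 windows. A lower share than that of the interval, which was chosen for its few mouse peaks, was found in 22, 0 and 0 of them. No paired analysis was possible because there is a single library for either antibody, which also leaves no replicate to omit. The setting meant for the Grh motif was not run.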
